A study of Homo sapiens with 6 samples.

Results

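Chromosome 19 and chromosome 18, with 55.8 and 74.7 Mb of sequenced bases, differ far less in length than in the number of genes they carry. Open chromatin along both was compared in GM12878, a human B-lymphoblastoid line made by transforming B cells with Epstein-Barr virus. The rule for the regions used their position and no measured value. Overlapping or adjoining peaks of the 6 peak lists were merged into 56447 accessible regions, and the 1218 regions on chromosome 19 and the 1378 on chromosome 18, 2596 together, were kept.

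The libraries came from ATAC-seq, in which a transposase cuts and tags DNA that is not covered by nucleosomes, on bulk GM12878 cells fixed in 1% paraformaldehyde, transposed for 30 min at 37 °C and kept at 65 °C overnight to reverse the crosslinks, with no antibody used. There were 3 protocols for reversing the crosslinks after transposition, with 2 replicates each. These were the old buffer containing SDS, a new buffer without SDS, both with DNA purification, and the new buffer without purification, which the sample names call MI-ATAC. The methods also give the unpurified workflow a changed detergent in the lysis buffer, an EDTA stop and a spin with the supernatant discarded. It thus differs from the SDS protocol in more than the buffer and the purification. All 6 libraries are of the same cell line, so no group was a biological treatment, and the labels do not say whether replicates were separate cultures. The p-values below therefore measure the spread between libraries. Each list held 30136 to 38023 peaks, and the summit of a typical peak was covered by a median of 20 to 22 reads. On chromosome 19 the median over peaks was 21 to 24 reads per library and on chromosome 18 it was 19 to 22, over local backgrounds of 2.46 to 3.02 and 2.42 to 2.92 reads. Promoter peaks were called at MS4A1, which encodes the B cell surface protein CD20, in 6 libraries, at CD79A in 4, at CD22 in 3, and at CD79B and PAX5 in 1 each. None was called at the T cell genes CD3D, CD3E and CD3G, at HBB of red cells or at the epithelial genes EPCAM and CDH1.

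Chromosome 19 is the most gene-dense and among the most GC-rich human chromosomes, and holds large clusters of KRAB zinc finger genes, most of which encode DNA-binding repressors. Chromosome 18 is among the gene-poorest, and its genes are long and set in wide intergenic stretches. In lymphocyte nuclei chromosome 19 is known to lie toward the interior and chromosome 18 toward the periphery. Accessible chromatin has 2 main kinds, promoters at gene starts, which in mammals often lie in CpG islands, and distal elements such as enhancers, which are usually poorer in CpG and more particular to a cell type.

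Sequences of 5 sites on hg19 (GRCh37) are shown so that CpG content, a feature compared below, can be read at a distal site of each chromosome and at gene starts named below. They were chosen after the values were seen, and each was read 5′ to 3′ with every CpG in capitals. The first site lies in an intergenic region of chromosome 19 at chr19:30335660-30335810, plus strand, 27696 bp from the nearest gene start, that of CCNE1, which encodes cyclin E1, and it holds 16 CpG. The second lies in an intergenic region of chromosome 18 at chr18:70342088-70342238, plus strand, 36448 bp from the start of CBLN2, a synaptic organizer gene, and it holds 3 CpG. Both are 151 bp around a summit of a region that all 6 libraries called, with a −log10 q of 25.1 to 44.4 at the first and 43.5 to 61.8 at the second.
CCNE1 distal: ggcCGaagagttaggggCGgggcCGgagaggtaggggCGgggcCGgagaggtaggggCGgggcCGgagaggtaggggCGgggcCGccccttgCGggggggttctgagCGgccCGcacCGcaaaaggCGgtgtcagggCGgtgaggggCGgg
CBLN2 distal: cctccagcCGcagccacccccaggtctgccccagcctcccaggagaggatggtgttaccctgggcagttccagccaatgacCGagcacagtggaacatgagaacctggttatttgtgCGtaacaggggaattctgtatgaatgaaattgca

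The other sequences are the 150 bases upstream of the outermost start of 3 lymphocyte genes, with no annotated exon in them. CD79A, a signalling chain of the B cell receptor, at chr19:42381199-42381348, plus strand, has 3 CpG. BCL2, which blocks apoptosis, at chr18:60987362-60987511, minus strand, has 9, and MALT1, a protease that links antigen receptors to NF-κB, at chr18:56338547-56338696, plus strand, has 19. Among these 3 the start on chromosome 19 is the poorest in CpG.
CD79A upstream: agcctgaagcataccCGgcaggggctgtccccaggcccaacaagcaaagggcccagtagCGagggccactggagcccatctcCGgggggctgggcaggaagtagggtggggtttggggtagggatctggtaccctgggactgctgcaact
BCL2 upstream: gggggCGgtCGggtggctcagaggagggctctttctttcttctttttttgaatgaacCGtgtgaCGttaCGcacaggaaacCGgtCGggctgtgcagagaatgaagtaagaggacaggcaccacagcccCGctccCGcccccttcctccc
MALT1 upstream: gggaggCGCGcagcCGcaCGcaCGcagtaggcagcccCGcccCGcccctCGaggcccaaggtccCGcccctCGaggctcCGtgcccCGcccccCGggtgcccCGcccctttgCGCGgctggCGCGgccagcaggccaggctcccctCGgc

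Peaks were denser on chromosome 19 than on chromosome 18 per megabase, but by far less than genes were, and outside promoters the order turned. Chromosome 19 carries 1480 protein-coding genes in 55.8 Mb of sequenced bases and chromosome 18 carries 266 in 74.7 Mb, which is 26.5 against 3.56 genes per Mb, a 7.44-fold difference. In the order SDS buffer, new buffer and new buffer without purification, with replicates 1 and 2 of each, chromosome 19 held 15.9, 14.7, 16.8, 14.7, 16.6 and 16.2 peaks per Mb. Chromosome 18 held 11.8, 10.9, 11.8, 9.03, 11.0 and 10.4 peaks per Mb in the same order. Every value on chromosome 19 was higher than every value on chromosome 18, and replicate 2 of the new buffer was the lowest on both. The means were 15.8 ± 0.927 and 10.8 ± 1.02 peaks per Mb (SD, n = 6), a ratio of 1.47 ± 0.112. The log2 difference was 0.55 ± 0.11 and had the same sign in 6 of 6 libraries (p = 0.03125, adjusted p = 0.03125, two-sided exact permutation of signs, the smallest p that 6 libraries allow).

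Per protein-coding gene the order was the opposite. Chromosome 19 had 0.596 ± 0.0350 peaks per gene and chromosome 18 had 3.04 ± 0.287, so a gene on chromosome 18 had on average 5.10 ± 0.385 times as many peaks to itself (log2 difference −2.35 ± 0.11, lower on chromosome 19 in 6 of 6, exact permutation p = 0.03125, adjusted p = 0.03125). The same peak counts are divided here by fixed gene numbers. This difference is therefore the one per Mb shifted by a constant, and its p is no separate evidence. With all annotated genes as the denominator the log2 difference was −1.12, in the same direction.

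Outside promoters, taken here as everything beyond 1 kb of a protein-coding gene start, chromosome 19 held 4.05, 3.54, 4.55, 3.27, 4.33 and 4.15 peaks per Mb in the 6 libraries in the order above. Chromosome 18 held 9.59, 8.69, 9.63, 7.002, 8.90 and 8.16. The ranges did not overlap, and chromosome 18 was higher by 1.97 to 2.45 times in each library. The log2 difference was −1.12 ± 0.12, negative in 6 of 6 (exact permutation p = 0.03125, adjusted p = 0.03125).

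**Figure D1:**
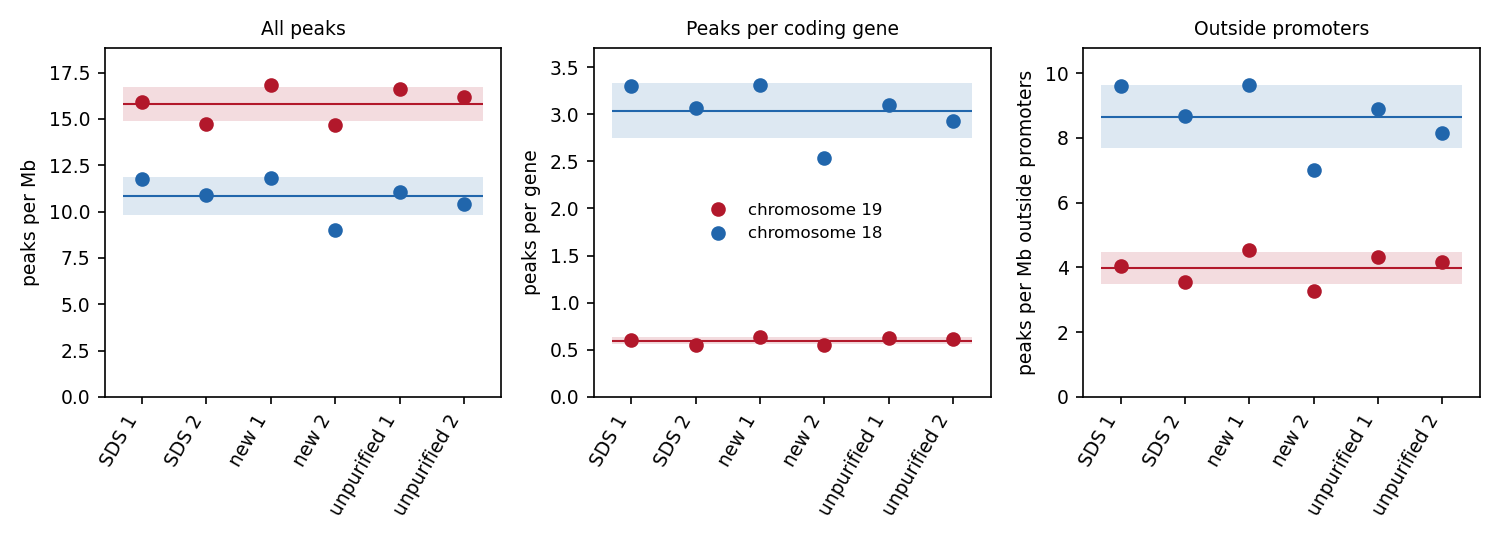
Peaks per Mb of sequenced bases (left), peaks per protein-coding gene (middle) and peaks per Mb outside promoters (right) in each of the 6 libraries. Points are libraries, lines are means and bands are 1 SD. Chromosome 19 in red lies above chromosome 18 in blue on the left, at 15.8 against 10.8 peaks per Mb, and below it in the other panels.

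Set among the 20 other autosomes, the 2 chromosomes were nearer the middle in regions per Mb than in regions per gene. Over the merged regions, chromosome 19 had 21.8 per Mb and was number 4 of 22 autosomes, and chromosome 18 had 18.5 per Mb and was number 14. In regions per gene chromosome 18 was number 2, with 5.18, and chromosome 19 was last, with 0.823. Outside promoters chromosome 19 had 7.89 regions per Mb and was number 21, above chromosome 22 with 4.78 and below chromosome 17 with 8.45, while chromosome 18 had 16.01 and was number 10. The low density outside promoters was thus shared with the next most gene-dense autosomes.

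As a description over the 22 autosomes, which share libraries and differ in base composition, gene density and regions per Mb had r = −0.0717 and rho = −0.187. Without chromosomes 18 and 19 the r was −0.439 over the other 20 chromosomes, so the value near 0 rests on the place of these chromosomes. Gene density and regions outside promoters per Mb had r = −0.696, and −0.715 without chromosomes 18 and 19. The GC content of a chromosome and its regions outside promoters per Mb had r = −0.849, so gene density and GC content move together with this density and cannot be told apart here. Within promoter sequence the 2 chromosomes were level. Promoters make up 8.95% of chromosome 19 and 1.68% of chromosome 18, and there were 163.5 and 162.2 promoter regions per Mb of promoter sequence.

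**Figure D2:**
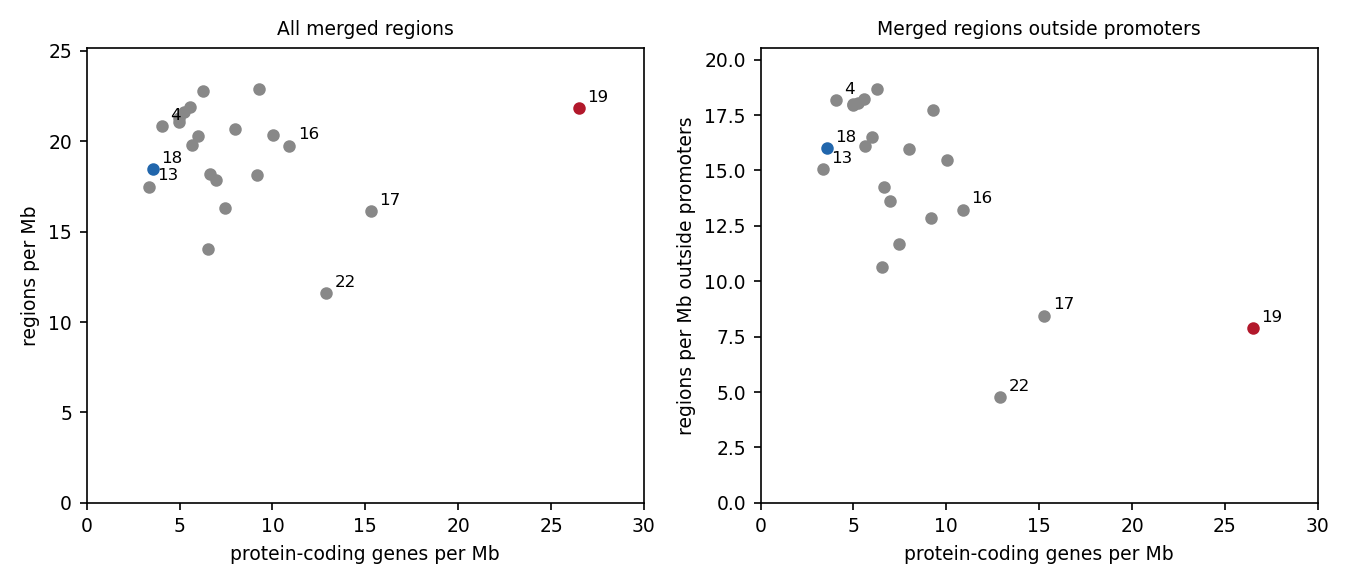
Merged regions per Mb (left) and merged regions outside promoters per Mb (right) against protein-coding genes per Mb, with 1 point for each of 22 autosomes. Chromosome 19 (red) is at 26.5 genes per Mb, near the top on the left with 21.8 regions per Mb and near the bottom on the right with 7.89, and chromosome 18 (blue) is at 18.5 and 16.01.

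Most accessible regions of chromosome 19 lay at gene starts, and most of those of chromosome 18 lay far from one. The share of peaks at promoters was 77.1 ± 1.54% on chromosome 19 and 21.5 ± 1.70% on chromosome 18 (SD, n = 6), with 75.4 to 79.7% and 19.7 to 23.7% over libraries and no overlap. The difference was 55.7 ± 1.18 percentage points, positive in 6 of 6 (exact permutation p = 0.03125, adjusted p = 0.03125). Of the merged regions, 817 of 1218 on chromosome 19 and 203 of 1378 on chromosome 18 were at promoters. The remaining regions of chromosome 19 were 78 in exons, 140 in introns and 183 between genes. Those of chromosome 18 were 55 in exons, 498 in introns and 622 between genes. The median distance from a region to the nearest start was 0.169 kb on chromosome 19 and 41.1 kb on chromosome 18. Over 50 kb from a start lay 34 regions of chromosome 19 (2.79%) and 634 of chromosome 18 (46.01%).

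Long genes of chromosome 18 carried many regions in their bodies. The median gene length was 54.0 kb there and 15.9 kb on chromosome 19. On chromosome 18, 22 genes had 10 or more regions within their bodies, led by DLGAP1, a postsynaptic scaffold gene, with 28 in 959 kb, FHOD3, a formin that acts on actin, with 24 in 483 kb, and TCF4, an E protein transcription factor, with 22 in 443 kb. On chromosome 19 SIPA1L3 was the 1 gene with as many, 12 in 301 kb. Genes with no region in their bodies numbered 571 of 1480 on chromosome 19 (38.6%) and 42 of 266 on chromosome 18 (15.8%).

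Along the chromosomes, in windows of 1 Mb, chromosome 19 had 1 to 41 regions per window (median 23.5, 56 windows) and chromosome 18 had 5 to 44 (median 18, 74 windows). The fullest window of chromosome 19, chr19:1000001-2000000, held 41 regions and 39 genes, among them the kinase gene STK11, GPX4, which protects lipids from peroxidation, and the transcription factor gene TCF3, and 12 of its regions were outside promoters. The fullest window of chromosome 18, chr18:60000001-61000000, held 44 regions, of which 37 were outside promoters, and overlaps TNFRSF11A, ZCCHC2, PHLPP1, BCL2 and KDSR. So the densest window of the gene-poor chromosome held more regions than that of the gene-dense one, and they were of the other kind. In windows with 5 to 19 genes, the median was 12 regions on chromosome 19 (9 windows) and 23 on chromosome 18 (22 windows), with 3 and 17 outside promoters. Across windows of a chromosome, genes and regions had r = 0.753 on chromosome 19 and 0.455 on chromosome 18, and genes and regions outside promoters had 0.230 and 0.250. Leaving out stretches that cross an assembly gap, the longest stretch without a region was 1574 kb on chromosome 19, chr19:31141259-32715598 with the developmental factor genes ZNF536 and TSHZ3, and 1171 kb on chromosome 18, chr18:14237107-15407707 with POTEC and ANKRD30B. The short and long arms of chromosome 19 had 22.5 and 21.3 regions per Mb, and those of chromosome 18 had 15.3 and 19.3.

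Accessible sequence was much richer in GC on chromosome 19, by more than the chromosomes themselves differ. The median GC content of peaks was 64.5 ± 0.216% on chromosome 19 and 45.2 ± 0.450% on chromosome 18, a difference of 19.3 ± 0.352 points (6 of 6 libraries, exact permutation p = 0.03125, adjusted p = 0.03125), against 48.4% and 39.8% for all sequenced bases. At promoters alone the peaks of chromosome 19 were slightly lower in GC, at 65.5 ± 0.208% against 67.02 ± 0.442% (difference −1.52 ± 0.351, 6 of 6, exact permutation p = 0.03125, adjusted p = 0.0375). When peaks in or within 10 kb of a ZNF gene were left out, that difference was 0.0322 points (exact permutation p = 0.8125, adjusted p = 0.8125), so the lower promoter GC of chromosome 19 was not called without the zinc finger genes. Outside promoters chromosome 19 was higher by 14.8 ± 1.11 points, at 57.9 ± 1.07% against 43.1 ± 0.369% (6 of 6, exact permutation p = 0.03125, adjusted p = 0.0375).

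The regions of chromosome 19 outside promoters also more often resembled CpG islands. A ratio of observed to expected CpG of at least 0.6, a usual mark of an island, was found in 26.7% of its 401 regions outside promoters, in 3.32% of the 1175 on chromosome 18 and in 5.35% on the other autosomes. At promoters the shares were 86.5% and 83.3%. The 151 bp printed above near CCNE1 and CBLN2 hold 77.5% and 55.6% GC, each above the median of its chromosome for regions outside promoters, 55.8% and 43.0%, so neither is typical.

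Peaks were wider and more often found again on chromosome 19 over all peaks, yet at promoters both orders turned. The median width was 463 ± 20.8 bp on chromosome 19 and 386 ± 20.1 bp on chromosome 18 (difference 76.9 ± 18.8 bp, 6 of 6, exact permutation p = 0.03125, adjusted p = 0.03125). In the order of libraries above it was 469, 428, 489, 453, 474 and 465 bp on chromosome 19 and 369.5, 356, 398.5, 408, 400.5 and 384 bp on chromosome 18, without overlap. At promoters, however, the peaks of chromosome 19 were narrower, 505 ± 28.3 bp against 654 ± 49.0 bp (difference −149 ± 26.7 bp, 6 of 6, exact permutation p = 0.03125, adjusted p = 0.0375). Outside promoters they were 341 ± 17.4 bp and 352 ± 12.8 bp, and the difference of −10.9 ± 16.6 bp was within the spread of libraries (higher on chromosome 19 in 2 of 6, exact permutation p = 0.1875, adjusted p = 0.1875). Promoter peaks were thus wider than the others on both chromosomes, and they made up 77.1% of the peaks on chromosome 19 and 21.5% on chromosome 18.

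Recurrence, the share of a library's peaks that overlapped a peak in each of the 5 other libraries, followed the same pattern. It was 64.9, 70.8, 61.1, 70.7, 61.9 and 63.5% on chromosome 19 and 49.9, 54.8, 49.3, 64.2, 52.8 and 56.6% on chromosome 18 in the order above. In each library chromosome 19 was higher, although replicate 2 of the new buffer on chromosome 18 reached into the range of chromosome 19. The means were 65.5 ± 4.26% and 54.6 ± 5.49% (difference 10.9 ± 4.05 points, exact permutation p = 0.03125, adjusted p = 0.03125). Within promoters the recurrence was lower on chromosome 19, 73.7 ± 3.64% against 80.1 ± 3.05% (difference −6.43 ± 3.01, 6 of 6, exact permutation p = 0.03125, adjusted p = 0.0375), and it was −3.50 without replicate 2 of the SDS buffer. Outside promoters it was lower too, 38.02 ± 4.52% against 47.7 ± 5.78% (difference −9.71 ± 3.43, 6 of 6, exact permutation p = 0.03125, adjusted p = 0.0375).

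**Figure D3:**
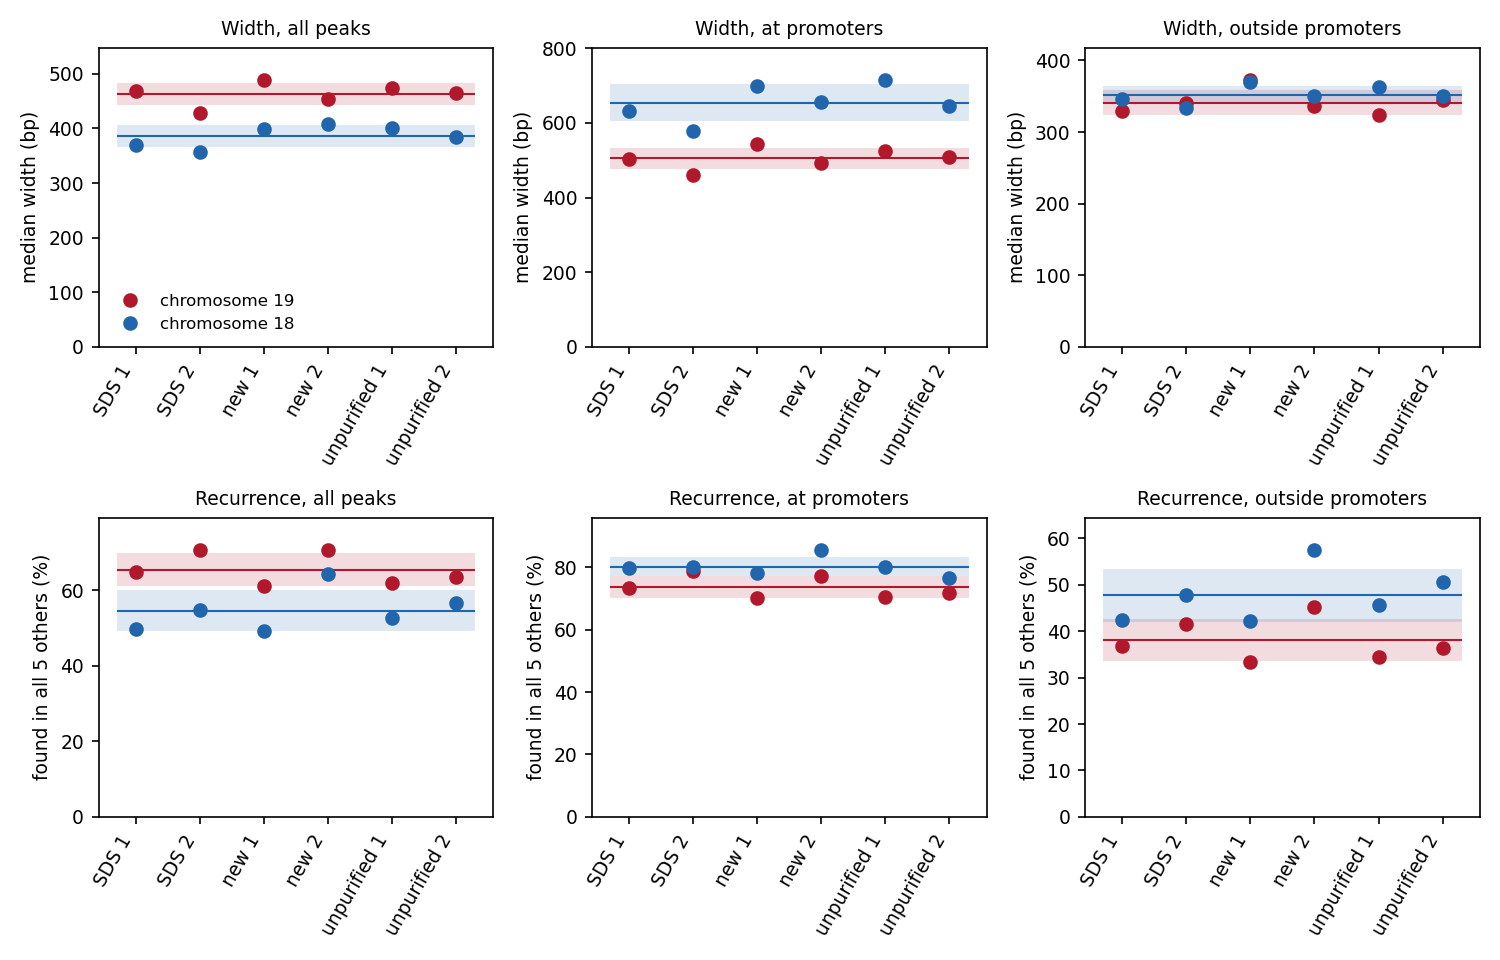
Median peak width in bp (top) and recurrence in percent (bottom) for all peaks, peaks at promoters and peaks outside promoters, in each library. Points are libraries, lines means and bands 1 SD. Red chromosome 19 lies above blue chromosome 18 over all peaks and below it at promoters, with widths of 505 against 654 bp there.

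Among the merged regions, 570 on chromosome 19 (46.8%) and 436 on chromosome 18 (31.6%) were called in all 6 libraries, against 35.5% of all regions. Of the 22 autosomes chromosome 19 had the highest share and chromosome 18 the lowest. Regions called in 1 library only were 229 on chromosome 19 (18.8%) and 408 on chromosome 18 (29.6%), against 27.4% of all regions. At promoters, 494 of 817 regions of chromosome 19 (60.5%) and 137 of 203 of chromosome 18 (67.5%) were called in all 6, where 64.2% of all autosomal promoter regions were. Outside promoters the counts were 76 of 401 (18.95%) and 299 of 1175 (25.4%), where the autosomal share was 27.1%. Within each kind, then, chromosome 19 was below chromosome 18 and below the autosomal share.

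**Figure D4:**
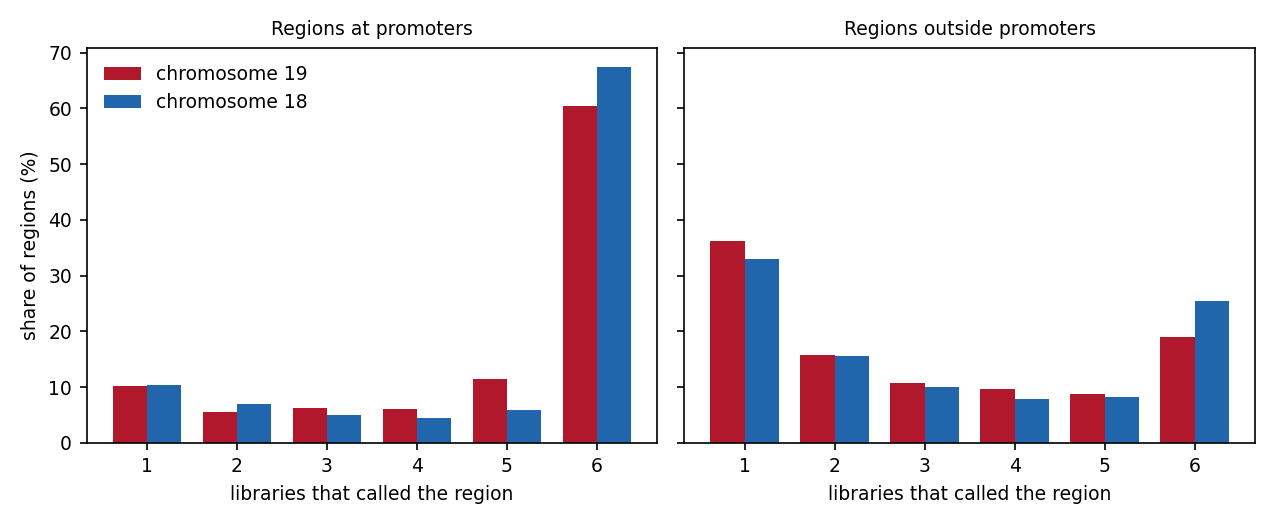
Share of merged regions (percent) by the number of libraries that called them, at promoters (left) and outside promoters (right). Bars of 6 libraries are at 60.5% for chromosome 19 and 67.5% for chromosome 18 at promoters and at 18.95% and 25.4% outside them.

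Promoter peaks of chromosome 19 were also weaker. Peaks with a −log10 q of at least 20, where q is the peak caller's chance estimate corrected for many tests, were 21.5 ± 3.22% of the promoter peaks on chromosome 19 and 44.9 ± 6.02% on chromosome 18. By class of strength, the promoter recurrence on chromosomes 19 and 18 was 99.1 ± 1.07% and 100% at a −log10 q of 20 and over. It was 89.5 ± 4.59% and 89.3 ± 6.84% at a −log10 q of 10 to 20, and 47.8 ± 9.94% and 48.3 ± 7.72% at 5 to 10. Under 5, with 40 to 61 and 7 to 16 peaks per library, it was 19.6 ± 10.8% and 13.2 ± 11.1%, a difference of 6.42 ± 14.4 points in the other direction. Outside promoters at 5 to 10 it was 23.3 ± 5.21% and 30.9 ± 10.5%, lower on chromosome 19 in 5 of 6 libraries. The difference outside promoters was 0.702 ± 8.48 points under 5, −7.97 ± 10.0 at 10 to 20 and 0.466 ± 0.726 at 20 and over. In these classes chromosome 19 was lower in 4, 4 and 0 of 6 libraries. The width at promoters was 695 ± 21.0 bp and 835 ± 35.1 bp at a −log10 q of 20 and over, and 556 ± 28.8 bp and 622 ± 49.7 bp at 10 to 20. Recurrence was higher in the stronger classes on both chromosomes, and the part of strength in the difference was not tested. Over all peaks the median summit fold enrichment was higher on chromosome 19, at 6.22 ± 0.127 against 5.70 ± 0.0776 (difference 0.522 ± 0.121, 6 of 6, exact permutation p = 0.03125, adjusted p = 0.03125), and the difference was 0.317 without peaks near ZNF genes.

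The density of regions outside promoters was lower on chromosome 19 in sequence of like base composition as well. Each chromosome was cut into windows of 10 kb and the merged regions outside promoters were counted by the GC content of the window. Under 38% GC chromosome 19 had 2.26 regions per Mb and chromosome 18 had 12.7, at 38 to 42% they had 2.22 and 16.4, and at 42 to 46% they had 4.46 and 18.8. At 46 to 50% GC they had 7.67 and 22.7, and at 50% and over 12.4 and 24.7. On chromosome 19 the values under 38% and at 38 to 42% rest on only 6 and 15 regions. Those classes hold 40.2% and 31.6% of the windows of chromosome 18. In the other autosomes the density was 14.0, 16.8, 18.6, 18.3 and 15.3 from the lowest to the highest class, so chromosome 18 was near them up to 46% and above them from there, and chromosome 19 was below them in each class. The 2 chromosomes fill the classes unequally, with 40.7% of the windows of chromosome 19 and 3.10% of those of chromosome 18 at 50% and over. With the window make-up of chromosome 18, the rates of chromosome 19 give 3.31 regions per Mb in place of the 7.84 found in these windows, and with the make-up of chromosome 19 the rates of chromosome 18 give 21.3 in place of 15.98. In an analysis added after seeing the data, windows within 10 kb of a ZNF gene were left out, and chromosome 19 then had 3.19, 2.68, 4.95, 8.04 and 12.5 regions per Mb and chromosome 18 had 12.5, 16.4, 18.3, 22.3 and 23.1. The lowest classes of chromosome 19 then held 5 and 9 regions.

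**Figure D5:**
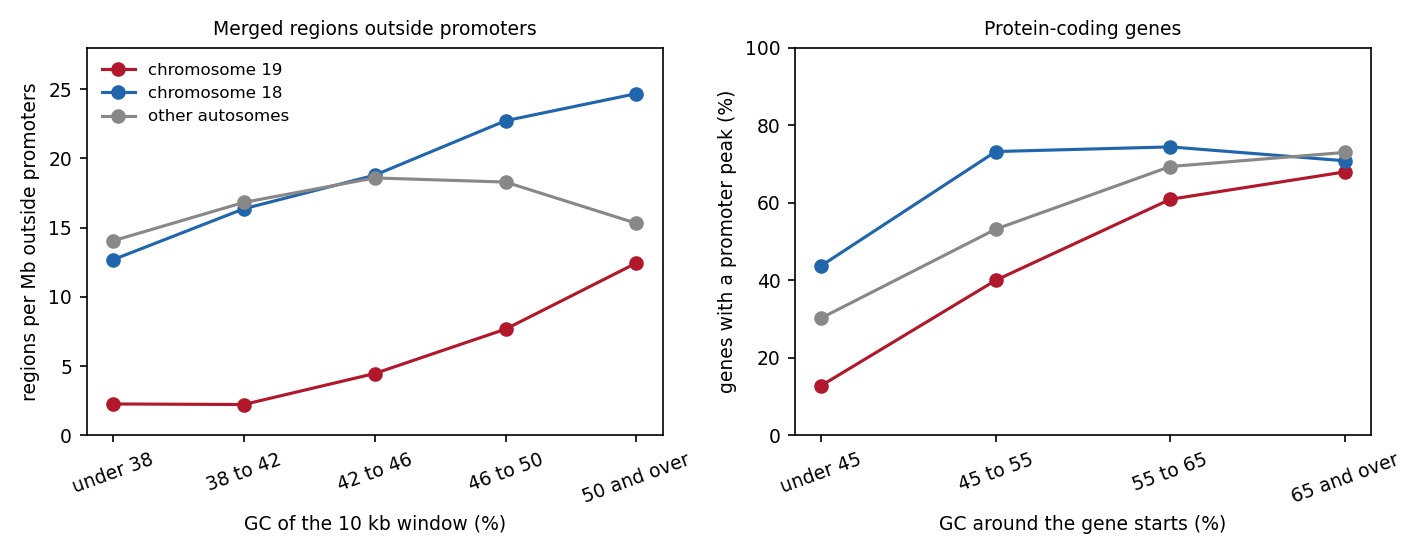
Left, merged regions outside promoters per Mb by the GC content of 10 kb windows. Right, percent of protein-coding genes with a promoter peak in at least 1 library by the GC content around their starts. Chromosome 19 (red) is below chromosome 18 (blue) and the other autosomes (grey) in each class on the left, and on the right it is at 12.8% against 43.8% in the lowest class and at 68.0% against 70.8% in the highest.

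A smaller share of the genes of chromosome 19 had a called promoter peak. A gene without a call may still have an open promoter whose signal lies under the calling threshold. Genes with a promoter peak were 49.0 ± 1.98% on chromosome 19 and 59.6 ± 1.34% on chromosome 18 (difference −10.7 ± 1.56 points, lower in 6 of 6, exact permutation p = 0.03125, adjusted p = 0.03125). By library they were 48.9, 45.9, 50.7, 47.4, 50.9 and 49.9% on chromosome 19 and 58.6, 59.8, 60.9, 57.5, 60.9 and 60.2% on chromosome 18, with no overlap. Over all libraries, 832 of 1480 genes on chromosome 19 (56.2%) and 177 of 266 on chromosome 18 (66.5%) had a promoter peak in at least 1, where 60.5% of autosomal genes did. In all 6 libraries it was 578 (39.1%) and 139 (52.3%), where 45.4% of autosomal genes did. A gene counted if any of its starts had a peak. The 1480 genes of chromosome 19 had 5720 starts and the 266 of chromosome 18 had 1339, so starts per gene were fewer on chromosome 19. Genes with no start of a protein-coding transcript, 44 on chromosome 19 and 4 on chromosome 18, stayed in the shares though they could not count. The part of these in the difference was not tested.

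Zinc finger genes more often had a called promoter peak than the other genes of chromosome 19. Of its 249 genes whose symbol starts with ZNF, 204 (81.9%) had a promoter peak in at least 1 library, and of the other 1231 genes 628 (51.0%) did. ZNF genes, and all peaks in or within 10 kb of them, were then left out on both chromosomes. The difference from chromosome 18 in the mean share per library was −17.0 points (exact permutation p = 0.03125, adjusted p = 0.03125). Other genes nearby stayed in the share though their peaks could be left out, so this value can overstate the difference. By the GC content around the gene starts, 12.8% of the genes of chromosome 19 under 45% GC had a peak against 43.8% on chromosome 18, 40.0% against 73.2% at 45 to 55%, 60.9% against 74.4% at 55 to 65%, and 68.0% against 70.8% at 65% and over. The gap was thus smallest at the GC-richest starts.

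Named genes show both sides. Of 18 lymphocyte genes on chromosome 19, 17 had a promoter peak in at least 1 library and 5 had one in all 6 (27.8%, against 45.4% of autosomal genes). Of 15 on chromosome 18, all 15 had one in at least 1 library and 12 had one in all 6 (80.0%). The lists are not alike, and both also hold broadly expressed genes, so the shares are not compared. Such genes are TCF3, IRF3 and JUNB on chromosome 19 and YES1, SMAD2, SMAD4 and PTPN2 on chromosome 18. On chromosome 19, RELB, which encodes an NF-κB subunit, had a −log10 q of 14.4 to 23.05 (median 15.8), TCF3 4.27 to 19.3 (median 12.3), and BCL3, an NF-κB regulator, 5.12 to 12.0 (median 7.70). Also called in all 6 were ICAM1, an adhesion receptor, at 4.04 to 6.64, and TNFSF9, the ligand of 4-1BB, at 6.42 to 15.8. CD79A was called in 4 libraries and the B cell inhibitory receptor CD22 in 3, while the B cell transcription factor genes SPIB and POU2F2 were called in 2 and the tetraspanin gene CD37 in none.

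On chromosome 18 the peaks of this list include apoptosis and signalling genes. MALT1 had a −log10 q of 20.7 to 38.1 (median 34.6), PMAIP1, which encodes the apoptosis trigger NOXA, 28.2 to 47.5 (median 37.6), and BCL2, at the strongest peak of any of its starts, 16.1 to 26.8 (median 22.2). SMAD2, which carries TGF-β signals, had 20.9 to 27.8 (median 26.0). NFATC1, a factor activated by calcium signals, was called in 1 library, and CD226 and TNFRSF11A in 5. Within the gene bodies of the list lay 98 regions on chromosome 18, of which 22 were in TCF4, 16 in BCL2, 13 in MBP and 11 in CD226, and 27 on chromosome 19. The genes of the list are longer on chromosome 18, with a median of 122 kb against 12.9 kb.

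Growth and chromatin genes had open promoters on both. Beside 60.5% of autosomal genes with a promoter peak in at least 1 library and 45.4% in all 6, 10 of 10 on chromosome 19 had one and 7 had it in all 6 libraries, with PPP2R1A, a scaffold subunit of a phosphatase, at 32.0 to 36.2 and CARM1, an arginine methyltransferase, at 18.4 to 42.6. On chromosome 18, 10 of 10 had one in all 6, with ROCK1, a kinase of the cytoskeleton, at 41.8 to 49.9 and CXXC1, a CpG-binding protein, at 28.1 to 42.4. Genes of other tissues mostly had no promoter peak. Of 37 kallikrein, pregnancy-specific glycoprotein and cytochrome P450 genes of chromosome 19, 1 had a promoter peak, CYP4F12 in 1 library, against the 60.5% of autosomal genes. Of 23 desmosome, SERPINB, cadherin and axon guidance genes of chromosome 18, 5 had one, and DSG2 and SERPINB8 had it in all 6, with medians of 18.7 and 18.8. The gene bodies of these lists held 40 regions on chromosome 18, of which 11 were in DCC, and 1 on chromosome 19.

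Regions were ranked by their lowest −log10 q over the 6 libraries. The 3 strongest of chromosome 19 were not at genes. The highest −log10 q, 115 to 122 over libraries and 157 to 173 reads at the summit, was at chr19:27731794-27732881, which lies 0.011 kb from an assembly gap and 1971720 bp from the nearest gene start, that of UQCRFS1. The next were intergenic too, chr19:36066350-36066826 at 72.5 to 84.8 and chr19:19887000-19887783 at 49.8 to 74.2. Whether reads of repeated sequence add to these regions was not tested. The strongest promoter regions were those of FBXL12, an F-box gene, chr19:9929517-9930504, at 41.3 to 51.6, and LRP3, a lipoprotein receptor gene, chr19:33667355-33668751, at 34.1 to 45.98. On chromosome 18, 4 of the 5 strongest regions by this rank were promoters. They belong to CYB5A, which encodes cytochrome b5, chr18:71958941-71959778, at 65.2 to 92.4, the ubiquitin ligase gene RNF138, chr18:29671707-29673028, at 56.4 to 82.6, VPS4B of membrane sorting, chr18:61089252-61090348, at 45.1 to 59.5, and TXNL4A of the spliceosome, chr18:77793487-77794820, at 44.4 to 69.3. The other was intergenic, chr18:107866-108753, at 56.5 to 74.0. The order near the end of the 5 depends on the rank, since the intergenic region near CBLN2 reached 61.8 and an exon region of POLI, a DNA polymerase gene, reached 61.1, both above the highest value at VPS4B. The widest region was 1979 bp at TSEN34 and MBOAT7 on chromosome 19 and 2136 bp at ZBTB14 on chromosome 18.

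Short motifs at the summits differed between the regions outside promoters of the 2 chromosomes. Letters were searched on both strands in 201 bp around each summit, with N for any base, in cores of 7 to 9 letters of which some overlap. Outside promoters GGGGCGGGG, a core of SP and KLF sites, was found in 7.73% of the regions of chromosome 19, 0.255% of those of chromosome 18 and 1.21% of those of the other autosomes. GCGCNTGCG of NRF1 was in 5.49%, 0.0851% and 0.509%, and CCGGAAG of ETS factors in 4.24%, 1.19% and 1.36%. The first of these was found in 3 regions of chromosome 18 and the second in 1. All 3 hold CpG. TGANTCA of AP-1 was in 10.2%, 16.9% and 17.6%, TGTGGTT of RUNX factors in 8.23%, 12.9% and 12.7%, and GAANNGAAA of IRF factors in 7.73%, 13.8% and 12.1%. GGNNTTTCC of NF-κB was in 11.5%, 9.11% and 8.64%, and AGGGGGCGC of CTCF, which also holds CpG, in 0.748%, 0.681% and 0.566%, or 3 regions of chromosome 19 and 8 of chromosome 18. GAGGAAGT of PU.1, itself an ETS factor, was in 3.49%, 2.72% and 3.21%, and AAGATGGC of YY1 in 0.499%, 0.511% and 1.01%. At promoters GGGGCGGGG was in 25.6%, 25.1% and 22.1%, and CCGGAAG in 19.8%, 9.85% and 13.4%. The GC content of the windows moves with these shares, and its part was not tested.

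The ratio of the 2 chromosomes was compared between protocols last. The density on chromosome 19 was 1.35 and 1.35 times that on chromosome 18 in the SDS buffer, 1.43 and 1.63 times in the new buffer, and 1.505 and 1.55 times in the new buffer without purification. Both SDS libraries lay below the 4 others. The mean log2 ratios were 0.43 ± 0.0029, 0.61 ± 0.13 and 0.61 ± 0.029 (SD, n = 2). The SDS buffer differed from the new buffer by −0.17 and from the new buffer without purification by −0.18 (exact permutation p = 0.333, adjusted p = 0.5 for both), and the new buffers differed by −0.0033 (exact permutation p = 1, adjusted p = 1). With 2 libraries against 2 the smallest p of this test is 0.333, so it could call no difference of any size. Regions called in both SDS libraries and no other were 6 on chromosome 19 (0.493%) and 20 on chromosome 18 (1.45%), against 1.16% of all regions. For the new buffer they were 11 (0.903%) and 12 (0.871%), against 0.507%, and for the new buffer without purification 14 (1.15%) and 6 (0.435%), against 0.788%.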

How the data were processed

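Peak lists of 6 bulk ATAC-seq libraries of GM12878 were used, 1 list per library. Per the methods and the submitters' processing notes, the authors mapped reads to hg19 with Bowtie2 2.1.0, removed duplicates with Picard 1.79, filtered peaks in blacklisted and mitochondria-like sequence, and called peaks with MACS2 at a q of 0.01. The methods state that reads of 1 condition were merged before calling, but the lists are per library. For MACS2 the version is not given in the sources used here. Each deposited peak has a score, the fold enrichment at its summit, which is a ratio to local background, and a −log10 value of both p and q. Low mappability and the blacklist can remove peaks in repeats, and duplicate removal caps summit reads.

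Peaks were merged by position with a minimum overlap of 1 bp or by touching ends, on the 22 autosomes for comparisons. Promoters were within 1 kb of 78569 starts of protein-coding transcripts (GENCODE 44 on GRCh37). Densities used bases other than N. Summit reads were solved from fold enrichment and −log10 p, and the lowest background, 1.51 to 1.86 reads, gives relative depth. Intervals equalled those of bedtools 2.31.1 in 507 of 507 checks, and 500 of 500 summit reads were recovered on simulated data. Python 3.11.15, NumPy 2.4.6, pandas 2.3.3 and SciPy 1.17.1 were used.

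Each library gave 1 value per chromosome. Differences were tested by an exact two-sided sign-change permutation over 6 libraries (64 sign changes), adjusted by Benjamini-Hochberg over 9 measures and 6 within-class measures. Density per Mb and density per gene use the same peak counts, so the 9 measures are not independent. Protocols were compared by exact permutation of 2 against 2, adjusted over 3. Values of regions, genes, windows and motifs pooled over libraries are descriptions. Genes named are members of the lists and the strongest, widest and fullest regions or windows. The members and lists were chosen with earlier results of these data known, and the sequences and the final motif letters after values were seen. Alternatives were a stricter −log10 q of 5, an equal number of 30136 peaks per library, no peaks near ZNF genes, other promoter windows, other denominators, 50% coverage for recurrence and leaving out each library. Some genes and sequences are not reported here.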

Additional observations from a re-analysis of the deposited data

How the results depend on the processing

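Leaving out 1 library at a time kept the direction of the 15 chromosome differences but leaves 5 libraries, for which the smallest p is 0.0625, so no call could be made. Among the differences called with 6 libraries, 1 did not reach even that smallest p. It was recurrence at promoters without replicate 2 of the new buffer, with a difference of −5.07 points. The ranges of the differences (chromosome 19 minus chromosome 18) were 0.52 to 0.57 (log2) for density per Mb, −2.38 to −2.32 for density per gene, −1.15 to −1.09 for density outside promoters, 72.4 to 83.3 bp for width, 55.4 to 56.1 points for promoter share, 19.2 to 19.3 for GC content, 10.3 to 11.8 for recurrence, −10.9 to −10.0 for genes with a promoter peak and 0.484 to 0.546 for fold enrichment. At promoters they were −154.8 to −140.2 bp for width, −1.64 to −1.45 for GC content and −6.90 to −3.50 for recurrence, the last without replicate 2 of the SDS buffer. Outside promoters they were −14.3 to −5.2 bp, 14.4 to 15.1 and −10.4 to −7.77. For the log2 density ratio between protocols they were −0.27 to −0.08 (SDS against new buffer, the ends without replicates 1 and 2 of the new buffer), −0.20 to −0.16 (SDS against unpurified) and −0.10 to 0.0904 (new buffer against unpurified, where it was 0.0904 without replicate 1 of the new buffer and 0.0174 without replicate 2 of the unpurified one).

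Under the other settings 80 values kept their direction and side of the threshold and 1 did not, GC content at promoters without ZNF genes, 0.0322 points (adjusted exact permutation p = 0.8125). The cause was not tested. Among the 80 are the protocol differences, which could not cross the threshold because their smallest p is 0.333. The replicate block is counted too, and it keeps the main values by construction. With the replicate block, permuting protocol labels only between libraries of 1 number, the protocol differences were −0.17, −0.18 and −0.0033 with exact p of 0.5, 0.5 and 1, which is the least or more that the block allows. Differences in calls between replicates 1 and 2 were not correlated between protocols from region to region (correlations over all regions −0.00142, 0.00404 and 0.00622). Such a correlation cannot show a shift of a whole library. Replicate 1 had more peaks than replicate 2 in each protocol, at 37654 against 34826 (SDS), 38023 against 30136 (new buffer) and 36252 against 34438 (unpurified). The exact test used for protocols cannot go under 0.333 for a difference of any size, and weak regions at the calling threshold are those least often found again.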
